A study of Mus musculus with 8 samples.

Results

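Imprinted growth genes were followed through sorted cells of the mouse kidney filter. The 8 genes were Cdkn1c, Plagl1, Igf2, Igf2r, Grb10, Mest, Meg3 and Peg3, taken by symbol from the 17326 gene lines of the deposited count table that carried a count for all 8 libraries. They were chosen as imprinted regulators of growth, with Cdkn1c as the podocyte cell-cycle brake, and all 8 passed the filter on low counts. RNA had been sequenced from kidney endothelium and podocytes that were separated by fluorescence-activated cell sorting. Each cell type came from wild-type mice (EMCN+/+) and from mice without endomucin (EMCN-/-), a mucin-like glycoprotein of the endothelial surface coat, which gave 4 groups of 2 libraries. The replicate numbers were 2 and 3 in every group. Age, strain, sort markers and whether libraries came from separate animals were not given in the sources used here, so p-values measure only the spread between these libraries.

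An imprinted gene is read mainly from the copy inherited from one parent, and the silent copy is held off by DNA methylation or by a noncoding RNA at a shared control region. Many such genes set body and organ growth. Paternally read Igf2, Mest, Peg3 and Plagl1 generally go with growth or metabolism of the fetus, and maternally read Cdkn1c, Igf2r, Meg3 and, in most tissues, Grb10 are largely restraints on growth. Cdkn1c encodes p57, an inhibitor of cyclin-dependent kinases, and mature podocytes, which do not normally divide, are known for high p57. The counts used here do not separate the parental copies.

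The libraries held 10478956 to 17386042 counts on complete gene lines. The first principal component of all tested genes held 47.2% of the variance and separated endothelium from podocytes. On the second, with 18.6%, wild-type endothelium replicate 3 lay apart. Mitochondrial genes took 10.1 to 26.2% of counts, and in every group replicate 3 had the larger share. Markers of tubule cells (10 tested) summed to 4460 to 22574 CPM (counts scaled to a common library size), with the highest sum in wild-type endothelium replicate 3, and their part in the results was not tested. Emcn had 25953 and 25261 counts in wild-type endothelium and 2460 and 2081 counts with the knockout, and fell by 3.43 on the log2 scale (edgeR quasi-likelihood test, adjusted p = 0.0205). In podocytes it had 1143 and 495 counts against 90 and 67, a log2 fold change of -3.38 (adjusted p = 0.0321). Of 18 endothelial markers tested, 17 were higher in endothelium and Cldn5 was higher in podocytes. All 14 podocyte markers tested, a list that contains Cdkn1c, were higher in podocytes.

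Start-site windows show the bases around 1 start of transcription of a gene. They are printed for 4 genes whose levels went different ways: Plagl1, higher in podocytes, Mest and Meg3, higher in endothelium, and Igf2r, which did not pass the test. RefSeq windows on GRCm38.p6 cover 300 bases, most of them before the start, and 7 of the 8 genes matched one, Cdkn1c being the gene without an entry. The window with most CG pairs was taken for each gene. Capitals mark CG pairs, the sites at which mouse DNA is methylated. Plagl1 lies at chr10:13090582-13090881 on the plus strand, Mest at chr6:30737800-30738099 on the plus strand, Meg3 at chr12:109540746-109541045 on the plus strand and Igf2r at chr17:12769657-12769956 on the minus strand, each written 5′ to 3′.
Plagl1: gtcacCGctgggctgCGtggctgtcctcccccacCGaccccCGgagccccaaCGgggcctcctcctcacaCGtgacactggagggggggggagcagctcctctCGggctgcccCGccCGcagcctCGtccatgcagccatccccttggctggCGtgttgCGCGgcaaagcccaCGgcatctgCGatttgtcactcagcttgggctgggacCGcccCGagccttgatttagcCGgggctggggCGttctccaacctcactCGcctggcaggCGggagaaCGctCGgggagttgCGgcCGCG
Mest: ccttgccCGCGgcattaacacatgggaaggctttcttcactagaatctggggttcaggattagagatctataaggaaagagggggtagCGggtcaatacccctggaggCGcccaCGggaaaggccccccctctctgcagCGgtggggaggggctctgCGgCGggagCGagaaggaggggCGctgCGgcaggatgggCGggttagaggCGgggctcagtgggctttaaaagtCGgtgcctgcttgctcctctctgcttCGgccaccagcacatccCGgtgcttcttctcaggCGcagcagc
Meg3: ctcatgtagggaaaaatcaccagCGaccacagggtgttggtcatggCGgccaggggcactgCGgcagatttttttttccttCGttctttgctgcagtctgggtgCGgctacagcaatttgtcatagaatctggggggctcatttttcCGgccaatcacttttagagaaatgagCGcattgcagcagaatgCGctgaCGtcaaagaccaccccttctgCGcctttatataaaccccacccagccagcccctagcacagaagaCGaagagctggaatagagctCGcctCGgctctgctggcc
Igf2r: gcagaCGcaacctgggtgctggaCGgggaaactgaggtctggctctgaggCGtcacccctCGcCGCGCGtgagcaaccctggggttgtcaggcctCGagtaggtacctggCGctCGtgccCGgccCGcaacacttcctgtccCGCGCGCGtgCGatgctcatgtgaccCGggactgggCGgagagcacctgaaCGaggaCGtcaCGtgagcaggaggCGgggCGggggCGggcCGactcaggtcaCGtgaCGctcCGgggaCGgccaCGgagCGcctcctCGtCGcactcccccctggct
These windows held 26, 17, 13 and 34 CG pairs, and the other matched genes had 45 (Grb10), 24 (Igf2) and 13 (Peg3), beside a median of 7 over all 32841 windows in the table, which were not chosen for their CG pairs. Of all windows, 37.9% held at least as many as those of Meg3 and Peg3, 31.4% at least as many as that of Mest, 20% as that of Igf2, 16.9% as that of Plagl1, 7.73% as that of Igf2r and 1.93% as that of Grb10. Since windows were chosen for the genes only, nothing is read from these differences. The motif GGGCGG, a GC box, was searched on both strands and was present in 5 of the 7 windows and in 35.7% of all windows. Each GC box contains a CG pair, so these searches overlap. TATAAA was in 1 of the 7, that of Meg3, and in 13.6% of all windows. A match describes letters in a window only. No methylation was measured.

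The cell types differed in 5 of the 8 genes. Cdkn1c and Plagl1 were higher in podocytes. Mest, Meg3 and Igf2 were higher in endothelium, each by over 8-fold (plot of CPM by library). Grb10, Igf2r and Peg3 did not pass the test. Over all 16477 genes tested, 18.3% passed an adjusted p of 0.05 in this comparison of the 4 endothelium with the 4 podocyte libraries (7.19% higher in endothelium and 11.1% higher in podocytes). That split depended on scaling: with library size alone 2347 genes passed, 1288 higher in endothelium and 1059 higher in podocytes, against 1184 and 1836 with trimmed-mean (TMM) scaling. In bulk libraries like these, fewer cells of a type and less RNA per cell cannot be told apart.

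**Figure D1:**
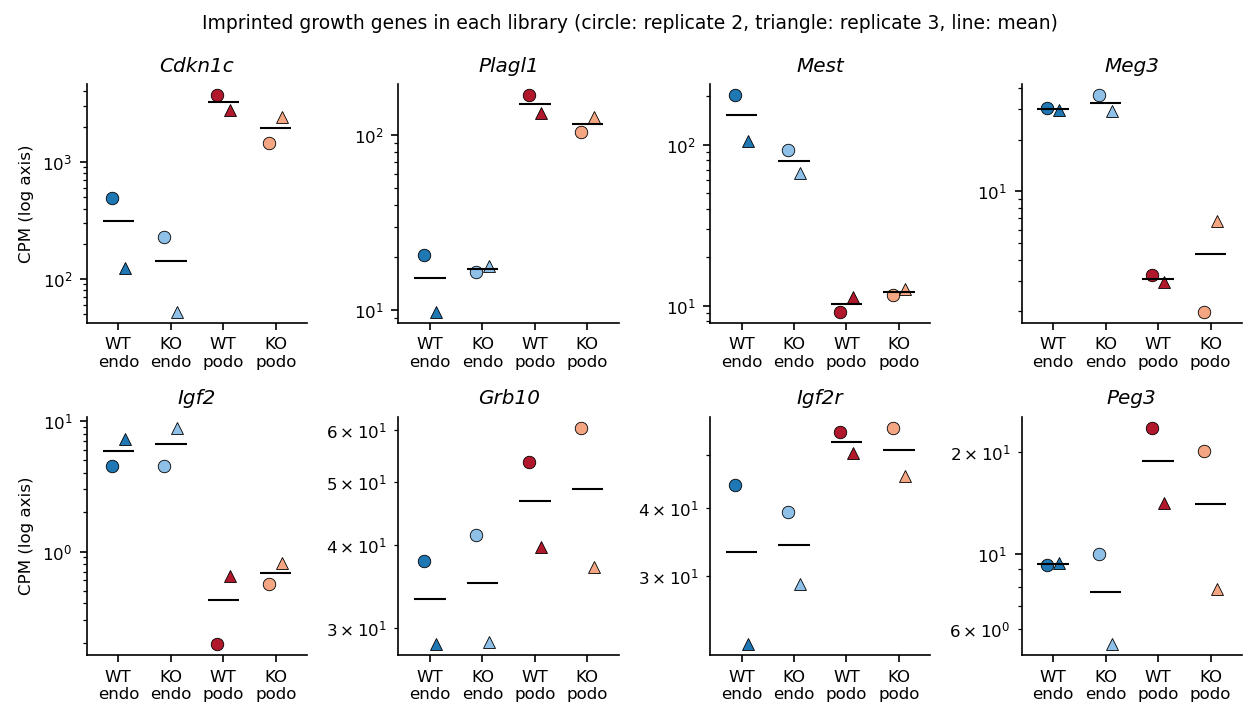
CPM (log axis) of the 8 imprinted growth genes in each library of the 4 groups. Circles are replicate 2, triangles replicate 3, and lines the means of 2 libraries. Cdkn1c and Plagl1 are high in all 4 podocyte libraries, whereas Mest, Meg3 and Igf2 are high in all 4 endothelium libraries.

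Cdkn1c (Entrez 12577, chr7:143458339-143461050 on the minus strand of GRCm38, 4 merged exons) had the highest mean level per kilobase of the 8 genes in every group. It reached 3696 and 2770 CPM in wild-type podocytes (3233 ± 655, SD, n = 2) and 1443 and 2412 CPM in knockout podocytes (1928 ± 685, SD, n = 2). Endothelium had 496 and 125 CPM in wild type and 230 and 52.5 CPM in knockout. Every podocyte library lay above every endothelium library, and within each endothelial genotype replicate 3 was about 4-fold below replicate 2. The log2 difference, endothelium minus podocytes, was -3.58 (SE 0.54, edgeR adjusted p = 0.000841), an 11.9-fold higher level in podocytes. Without wild-type endothelium replicate 3, which lay apart, it was -3.24 (adjusted p = 0.00259), and Plagl1 (-2.81), Mest (3.50), Meg3 (3.10) and Igf2 (3.35) also still passed. Cdkn1c was at -4.29 without knockout endothelium replicate 2 and at -4.24 without wild-type endothelium replicate 2, so the size of the fold depends on which endothelium libraries are counted. Per kilobase of merged exon, Cdkn1c stood 11th of 14751 genes in wild-type podocytes at 1586 CPM per kb, and 22nd in knockout podocytes at 945 CPM per kb. It stood 277th in wild-type and 536th in knockout endothelium. An antisense transcript, Gm44732, overlaps 30.7% of its exon length, and the use of strand in counting is not stated, so the share of reads from that transcript is unknown.

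The endothelium libraries also held transcripts of other podocyte markers. The summed level of 13 podocyte markers other than Cdkn1c was 2672 to 3583 CPM there, against 9970 to 19293 CPM in podocyte libraries, and no marker of the list was at 0 in any endothelium library. Cdkn1c in endothelium was 19.2 and 4.83% of its podocyte mean in wild type and 8.92 and 2.03% in knockout. Wt1, a podocyte transcription factor, gave 13.3, 6.32, 6.15 and 8.34% in the same order. Synpo, which encodes the actin-binding protein synaptopodin, gave 12.1, 4.97, 5.47 and 6.32%. In replicate 2 Cdkn1c thus stood above both markers, whereas in replicate 3 it stood below both. The sum of the 13 markers was at 19.95 to 26.7%, above Cdkn1c in all 4 endothelium libraries (plot of levels in the other cell type). Its largest parts there were Actn4 (means of 1478 CPM in wild-type and 1250 CPM in knockout endothelium) and Podxl (907 and 897 CPM). Whether their RNA came from podocytes was not tested, so the sum is not a measure of podocyte RNA. Plagl1 in endothelium was 15.5 and 7.33% of its podocyte mean in wild type and 12.4 and 13.4% in knockout. How much of either gene's endothelial level came from podocyte RNA was not tested.

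Plagl1 (Entrez 22634, chr10:13060504-13131694 on the plus strand) encodes a zinc finger transcription factor that can halt the cell cycle and that acts on other imprinted genes. It had 169 and 134 CPM in wild-type podocytes and 104 and 127 CPM in knockout podocytes. In endothelium the values were 20.7 and 9.77 CPM in wild type and 16.5 and 17.9 CPM in knockout, all below the lowest podocyte library. The log2 difference was -3.03 (SE 0.24, edgeR adjusted p = 1.1e-05), 8.17-fold higher in podocytes. Across the 8 libraries its log2 CPM had a Pearson r of 0.93 with Cdkn1c and ranked 334th of 10079 genes in likeness to it.

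**Figure D2:**
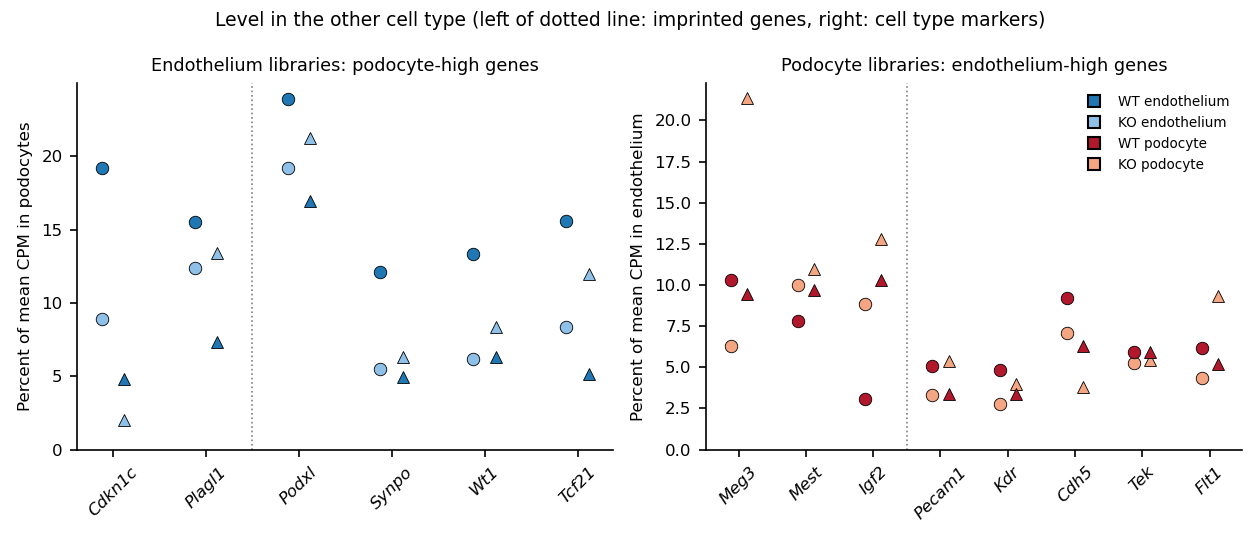
Level of each gene in the cell type where it is low, as a percent of its mean CPM in the other cell type. Left, podocyte-high genes in the 4 endothelium libraries, where Cdkn1c runs from 2.03 to 19.2%. Right, endothelium-high genes in the 4 podocyte libraries, where Mest runs from 7.84 to 10.95%. Circles are replicate 2 and triangles replicate 3.

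Among the genes high in endothelium, Mest (Entrez 17294, chr6:30723547-30748465 on the plus strand) encodes a hydrolase-like protein of the endoplasmic reticulum that is abundant in fetal mesoderm. Its levels were 202 and 105 CPM in wild-type endothelium and 92.1 and 66.7 CPM in knockout endothelium. Podocytes had 9.14 and 11.3 CPM in wild type and 11.7 and 12.8 CPM in knockout, and the cell types did not overlap. The log2 difference of 3.30 (SE 0.24, edgeR adjusted p = 6.9e-06) was the smallest adjusted p of the 8 genes and a 9.88-fold higher level in endothelium. Copg2, on the other strand, overlaps 23.1% of the Mest exon length.

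Meg3 (Entrez 17263, chr12:109541001-109571726 on the plus strand) is a long noncoding RNA from the maternal copy of the Dlk1 domain. Endothelium held 30.5 and 29.7 CPM in wild type and 36.2 and 29.2 CPM in knockout. The podocyte values were 3.24 and 2.98 CPM in wild type and 1.99 and 6.71 CPM in knockout, all below endothelium, with knockout podocyte replicate 3 the highest. Its log2 difference was 3.10 (SE 0.34, edgeR adjusted p = 9.9e-05).

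Igf2 (Entrez 16002, chr7:142650766-142666816 on the minus strand), the fetal insulin-like growth factor, had the lowest mean level per kilobase of the 8 genes in podocytes of both genotypes. It had 4.56 and 7.31 CPM in wild-type endothelium and 4.51 and 8.95 CPM in knockout endothelium. In podocytes it had 0.194 and 0.653 CPM in wild type and 0.559 and 0.811 CPM in knockout, which were only 3, 9, 9 and 11 counts. The difference was 3.54 on the log2 scale (SE 0.49, edgeR adjusted p = 0.000512), and at these counts the size of the fold is imprecise. A second gene model on the same strand, Gm49394, overlaps 62.8% of the Igf2 exon length, so the division of reads between them is uncertain.

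Podocyte libraries held transcripts of endothelial markers as well. The 18 endothelial markers summed to 918 to 1414 CPM there and to 11291 to 14493 CPM in endothelium, and none was at 0 in a podocyte library. Pecam1 in podocyte libraries was 3.33 to 5.41% of its endothelial mean and Kdr, the receptor for vascular endothelial growth factor, was 2.79 to 4.83%. Cdh5 was at 3.83 to 9.23%, and the sum of all 18 markers at 7.03 to 10.8%. That sum includes Cldn5, which was higher in podocytes. Cldn5 had the highest group means of the list there, 344 CPM in wild-type and 263 CPM in knockout podocytes. Mest was at 7.84 to 10.95% of its endothelial mean, a range that overlapped those of Cdh5 and of the marker sum and lay above those of Pecam1 and Kdr. The range for Meg3 was 6.33 to 21.4% and for Igf2 3.07 to 12.8%. The part of endothelial RNA in these podocyte levels was not tested. Mural and stromal markers (10 tested) summed to 351 to 748 CPM in endothelium and 506 to 1286 CPM in podocyte libraries, and their part in the levels of the 8 genes was not tested either.

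Igf2r, Grb10 and Peg3 differed less between the cell types. Igf2r (Entrez 16004, chr17:12682406-12769664 on the minus strand), which encodes the receptor that takes IGF2 to lysosomes, had 55.1 and 50.5 CPM in wild-type podocytes and 56.2 and 45.8 CPM in knockout podocytes. Endothelium had 44.0 and 22.4 CPM in wild type and 39.3 and 29.0 CPM in knockout. All podocyte libraries lay above all endothelium libraries, as was so in one direction or the other for 21.9% of genes, yet the log2 difference of -0.62 (SE 0.23) did not pass (edgeR adjusted p = 0.0861). It passed without wild-type endothelium replicate 2 (adjusted p = 0.0156).

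Grb10 (Entrez 14783, chr11:11930508-12038683 on the minus strand) encodes an adaptor that dampens insulin and IGF1 receptor signals. It had 37.9 and 28.3 CPM in wild-type endothelium, 41.5 and 28.6 CPM in knockout endothelium, 53.7 and 39.8 CPM in wild-type podocytes and 60.4 and 37.1 CPM in knockout podocytes. In each group replicate 2 was the higher library, and the cell types overlapped. The log2 difference was -0.49 (SE 0.22, edgeR adjusted p = 0.172). Peg3 (Entrez 18616, chr7:6703892-6730431 on the minus strand), a zinc finger protein gene, had 9.27 and 9.41 CPM in wild-type endothelium, 10.0 and 5.42 CPM in knockout endothelium, 23.5 and 14.1 CPM in wild-type podocytes and 20.1 and 7.89 CPM in knockout podocytes. Its groups overlapped through knockout podocyte replicate 3. The log2 difference was -0.93 (SE 0.34, edgeR adjusted p = 0.0913) and passed without that library (-1.20, adjusted p = 0.0194).

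Per kilobase of merged exon, the order of mean levels in wild-type podocytes was Cdkn1c, Plagl1, Igf2r, Grb10, Mest, Peg3, Meg3 and Igf2. Only the neighbours Igf2r (5.67 CPM per kb) and Grb10 (5.14 CPM per kb) overlapped there. The order in wild-type endothelium was Cdkn1c (152 CPM per kb), Mest (38.9 CPM per kb), Grb10, Igf2r, Plagl1, Meg3, Igf2 and Peg3, and there Grb10, Igf2r and Plagl1 each overlapped the next. Cdkn1c was thus first in all 4 groups, and Mest was second in both endothelial genotypes.

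Other imprinted genes were read from a list of 60, of which 35 (58.3%) stood on complete lines and 33 were tested. A total of 9 passed the cell type test, 4 higher in endothelium and 5 higher in podocytes, which is 27.3% of the list beside 18.3% of all genes. The median log2 difference of the list was 0.01, beside 0.00 over all genes. Dlk1, Rtl1, Cmah and Usp18 were higher in endothelium, and Osbpl5, Trappc9, Tspan32, Kcnq1ot1 and Ddc were higher in podocytes. Without wild-type endothelium replicate 3 the counts were 2 and 3.

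Neighbours of Meg3 were on the endothelial side, and of these Dlk1 and Rtl1 passed the test. Dlk1, a paternally read ligand-like membrane protein that ends 77.7 kb before Meg3, had a log2 difference of 4.03 (SE 0.51, edgeR adjusted p = 0.000274). Its counts were 249 to 350 in endothelium libraries and 6 to 50 in podocyte libraries. Rtl1, 17.5 kb away, had 3.07 (SE 0.77, adjusted p = 0.0183) on 9 to 34 counts against 0 to 12. The noncoding RNAs Rian, at 1.01 (adjusted p = 0.0841), and Mirg, at 2.70 (adjusted p = 0.0629), did not pass. All 5 genes of this domain that were tested, Meg3 included, thus had positive values. Of these 3 passed, Meg3 among them, beside 18.3% of all genes (7.19% higher in endothelium).

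On the stretch of chromosome 7 from Igf2 to Osbpl5, which holds Cdkn1c, the tested genes did not share 1 direction. Igf2 lies 792 kb from Cdkn1c, and whether they share a domain was not examined. Igf2 was higher in endothelium, whereas the other genes there that passed, Cdkn1c included, were higher in podocytes. Osbpl5, an oxysterol-binding protein gene 228 kb from Cdkn1c, was higher in podocytes (-2.05, SE 0.20, edgeR adjusted p = 4.4e-05). So was Kcnq1ot1, the long noncoding RNA that silences Cdkn1c on the paternal copy, which lies 162 kb away (-0.83, SE 0.21, adjusted p = 0.0190). Tspan32, a tetraspanin gene, was likewise higher in podocytes (-1.40, SE 0.23, adjusted p = 0.00174). Other tested neighbours did not pass and were near 0: Nap1l4, 52.5 kb from Cdkn1c (0.00, adjusted p = 0.992), Tssc4 (0.16, adjusted p = 0.584), Cd81 (0.04, adjusted p = 0.916) and Ins2 (-0.14, adjusted p = 0.923). Phlda2, Slc22a18 and Kcnq1 stood on incomplete lines and were not analysed here.

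**Figure D3:**
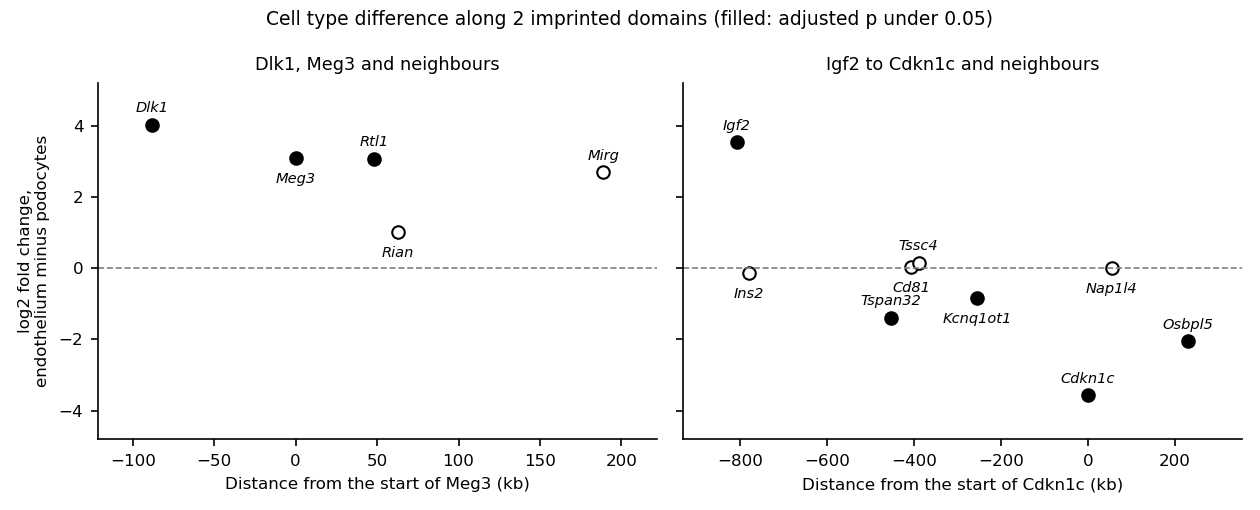
Log2 difference between endothelium and podocytes against distance from the start of Meg3 (left) or Cdkn1c (right), in kb. Filled points passed an adjusted p of 0.05. All 5 points of the left domain are above 0, with Dlk1 at 4.03. Points on the right run from Igf2 at 3.54, which lies 792 kb from Cdkn1c, to Cdkn1c at -3.58. Filled points there other than Igf2 are below 0.

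Insulin-like growth factor signalling, into which Igf2, Igf2r and Grb10 feed, was read from 25 further tested genes, of which 9 passed the cell type test (36% of the list, beside 18.3% of all genes), 3 higher in endothelium and 6 higher in podocytes (beside 7.19% and 11.1% of all genes). The secreted binding proteins, which hold the growth factors in the extracellular space, held the 6 largest differences of the list. Igfbp3 (3.77, SE 0.38, edgeR adjusted p = 5.6e-05), Igfbp5 (2.60, SE 0.28, adjusted p = 8.4e-05) and Igfbp4 (1.06, SE 0.27, adjusted p = 0.0199) were higher in endothelium. Igfbp2 (-4.69, SE 0.72, adjusted p = 0.000983), Igfbp6 (-3.97, SE 0.31, adjusted p = 9.1e-06) and Igfbp7 (-3.57, SE 0.58, adjusted p = 0.00147) were higher in podocytes. The adaptor genes Grb7 (-0.88) and Irs2 (-0.98) were also higher in podocytes, as was Irs1. The ligand Igf1 (-0.53, adjusted p = 0.0691) and the receptor Igf1r (-0.28, adjusted p = 0.256) did not pass. The list's median was -0.47, beside 0.00 over all genes. Counts of 6 (without wild-type endothelium replicate 2) to 13 (without knockout podocyte replicate 3) were found when single libraries were left out.

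Beside Cdkn1c, 10 other brakes on entry into the cell cycle were tested and 3 passed (30% of the list, beside 18.3% of all genes). Cdkn1a, which encodes p21, was higher in endothelium (1.36, SE 0.16, edgeR adjusted p = 0.000166), as was Cdkn2c (1.10, SE 0.28, adjusted p = 0.0176). Rbl2, a relative of the retinoblastoma gene, was higher in podocytes (-0.65, SE 0.20, adjusted p = 0.0458) and did not pass with DESeq2 size factors, library size alone or a mean of at least 5 CPM. Just 1 brake passed when knockout endothelium replicate 2 or 3, knockout podocyte replicate 2 or wild-type podocyte replicate 2 was left out. Per kilobase, Cdkn1a was at 72.1 and 23.9 CPM per kb in wild-type endothelium and podocytes, and Cdkn1b, which encodes p27, was at 2.19 and 1.21 CPM per kb. The mean of Cdkn1c exceeded those of all 5 other kinase inhibitors with a level per kilobase in each of the 4 groups, although in endothelium its libraries overlapped those of Cdkn1a.

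Of 26 cyclins, kinases and proliferation genes, 12 passed, 10 higher in endothelium and 2 higher in podocytes (46.2% of the list, beside 18.3% of all genes, with a median of 0.89 beside 0.00). Ccnd2 (2.53, SE 0.19, edgeR adjusted p = 7.1e-06) and Ccnd1 (1.88, SE 0.20, adjusted p = 8.8e-05), cyclins of the first gap phase, were higher in endothelium. So were Mcm3 of the replicative helicase (2.53, SE 0.26, adjusted p = 6.0e-05), Mki67 (1.51, SE 0.30, adjusted p = 0.00496) and Cdk1 (1.91, SE 0.43, adjusted p = 0.00984). The exceptions were E2f1 (-3.12, SE 0.27, adjusted p = 1.8e-05), a transcription factor of the cell cycle, and Cdk6 (-0.67, SE 0.19, adjusted p = 0.0330). Without wild-type podocyte replicate 2, 5 passed in the endothelial and 1 in the podocyte direction.

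Genes whose log2 CPM over the 8 libraries was most like that of Cdkn1c, among 10079 tested genes with a mean of at least 5 CPM, were Htra1 (Pearson r = 0.99), Il18 (0.99), Aplp1 (0.99), Rassf10 (0.98) and Hs2st1 (0.98). These are descriptions over libraries that fall into 2 cell types, so genes with a like cell type difference score high. Htra1, a secreted serine protease, had 217 and 99.95 CPM in wild-type endothelium and 184 and 38.9 CPM in knockout endothelium. In podocytes it had 1308 and 948 CPM in wild type and 754 and 854 CPM in knockout. In both endothelial genotypes Htra1, like Cdkn1c, was lower in replicate 3 than in replicate 2.

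Loss of Emcn was followed by no call among the 8 genes, in endothelium, in podocytes or in the difference between them. By edgeR 0.00607% of genes passed in each cell type, which is Emcn alone, and 0% in the difference. At an unadjusted p of 0.05, 1 of the 8 genes was reached in endothelium (Mest), 0 in podocytes and 1 in the difference (Mest), where 5.49%, 4.43% and 2.6% of all genes were. DESeq2 called 0 of the 8 in each comparison as well (plot of fitted differences).

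**Figure D4:**
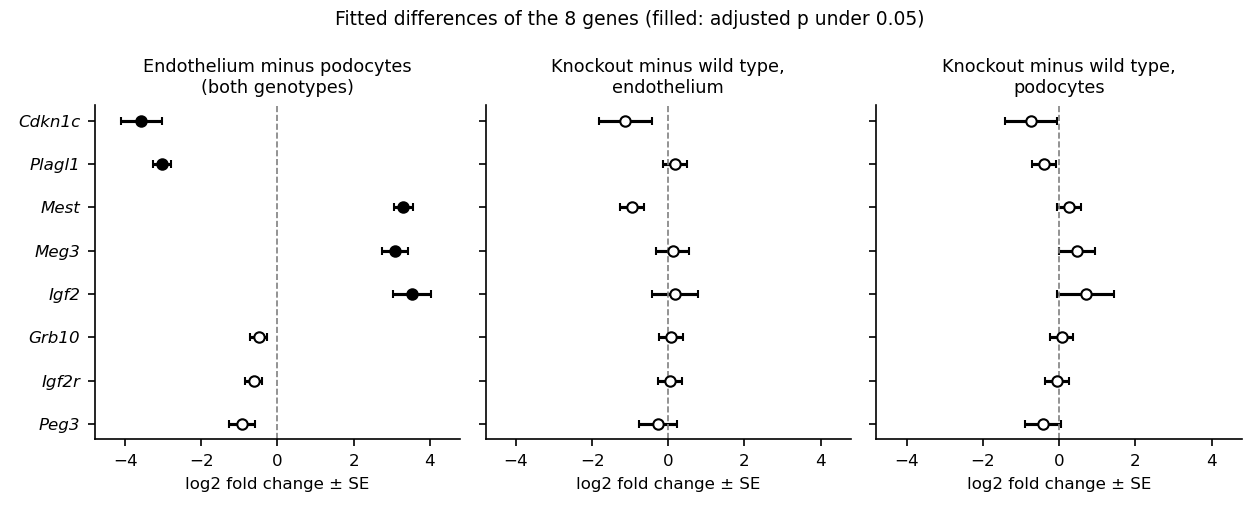
Fitted log2 fold changes with their standard errors for the 8 genes. Left, endothelium minus podocytes, where 5 points are filled (adjusted p under 0.05). Middle and right, knockout minus wild type in endothelium and in podocytes, where no point is filled and Mest in endothelium is at -0.95.

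Mest in endothelium had both knockout libraries (92.1 and 66.7 CPM) below both wild-type libraries (202 and 105 CPM), as had 19.7% of all genes. The log2 fold change was -0.95 (SE 0.31, unadjusted p = 0.0118, edgeR adjusted p = 0.716). It was -0.41 without wild-type endothelium replicate 2 and -1.36 without replicate 3. Relative to the summed endothelial markers, a list that contains Emcn, Mest was at 1.40 and 0.853% in wild type and at 0.652 and 0.590% in knockout. All 18 genes tested of the response to tissue dissociation had negative values (median -0.75, 0 calls, 8 at an unadjusted p of 0.05), and summed to 27367 and 35525 CPM in knockout and 43797 and 50740 CPM in wild-type endothelium. Tubule markers had a median of -1.01 (7 of 10 negative, 0 calls, 2 at an unadjusted p of 0.05) and summed to 4460 and 10780.3 CPM in knockout and 10296 and 22574 CPM in wild type, which overlapped. The part of either list in the Mest values was not tested. Podocytes had a Mest log2 fold change of 0.26 (SE 0.33, adjusted p = 0.981). The difference between the cell types' effects was -1.21 (SE 0.45, unadjusted p = 0.0224, adjusted p = 0.999997).

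Cdkn1c had both knockout podocyte libraries (1443 and 2412 CPM) below both wild-type podocyte libraries (3696 and 2770 CPM), as had 16% of all genes. The log2 fold change was -0.75 (SE 0.69, edgeR adjusted p = 0.978). All 14 podocyte markers had a negative value in knockout podocytes, with a median of -0.55 and 0 calls, beside a median of 0.02 over all genes. Without wild-type podocyte replicate 2 their median was -0.29 and 4 were positive. Without knockout podocyte replicate 3 it was -0.78 and 1 was positive. Set against the 13 other markers, Cdkn1c was at 19.2 and 21.7% of their sum in wild-type podocytes and at 14.5 and 20.9% in knockout podocytes, which overlapped. Plagl1 was at 0.873 and 1.05% in wild type and at 1.04 and 1.10% in knockout, and its own log2 fold change was -0.39 (SE 0.31, adjusted p = 0.978). In endothelium Cdkn1c had a log2 fold change of -1.13 (SE 0.69, adjusted p = 0.716) with overlapping groups, and without wild-type endothelium replicate 2 it was 0.17. Of the 14 podocyte markers, Cdkn1c included, 12 had a negative value in this comparison (median -0.38, 0 calls), and without that library 10 had a positive one (median 0.18). Their part in the Cdkn1c value was not tested.

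For the other genes, 6 in endothelium and 5 in podocytes, the fitted genotype values lay between -0.43 (Peg3 in podocytes) and 0.69 (Igf2 in podocytes), with standard errors of 0.31 to 0.75. Igf2 in podocytes was at 0.076 without wild-type podocyte replicate 2 and at 1.76 without replicate 3. The lists of other imprinted genes, insulin-like growth factor signalling, cell-cycle brakes and proliferation genes gave 0 genotype calls by edgeR and by DESeq2. At an unadjusted p of 0.05, edgeR reached 1 of 33, 3 of 25, 0 of 10 and 0 of 26 genes in endothelium and 3 of 33, 1 of 25, 0 of 10 and 4 of 26 genes in podocytes.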

How the data were processed

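Polyadenylated RNA of 8 libraries was prepared with a TruSeq protocol, per the labels' protocols. The authors deposited raw read counts per Entrez gene, and the submitters' processing notes name the build mm10 and DESeq2. Aligner, counter and use of strand were not given in the sources used here. Of 22533 gene lines, 5207 (23.1%) held fewer than 8 counts and were not analysed. These lines left unreadable cells in 3 columns, which were recorded as another kind of value for that reason alone. All values on complete lines of the deposited columns are whole-number counts.

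Counts were fitted with edgeR 4.0.16 in R 4.3.3: filterByExpr (16477 genes), TMM scaling, 1 mean per group over all 8 libraries, the quasi-likelihood F test, and Benjamini-Hochberg adjustment over all genes, threshold 0.05. Standard errors were derived from each log2 fold change and its F statistic. CPM used the TMM-scaled sizes, and log2 CPM a prior count of 2. Exon lengths, positions and overlaps came from GENCODE gene models on GRCm38, the assembly mm10 names. The methods were tested on simulated data.

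The 8 genes and the lists were chosen with earlier results of these data known. Named list genes are the 5 or fewer of smallest p per list, comparison and direction, or the 1 of smallest p where none passed, beside the likest 5 genes to Cdkn1c. Irs1, Igf1, Igf1r, Rian, Mirg, Nap1l4, Tssc4, Cd81, Ins2 and the Cdkn1b level were named after their values were seen. Alternatives were DESeq2 1.42.0, 2 other scalings, 2 other filters, a replicate block, separate fits per cell type and each library left out.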

Additional observations from a re-analysis of the deposited data

How the results depend on the processing

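The 5 cell type calls among the 8 genes kept their direction and stayed past the threshold in all alternatives run in which they were tested. Igf2 was not tested with a mean of at least 5 CPM, which left 4 calls. DESeq2 gave 6 calls, with Peg3 added at -0.92 (adjusted p = 0.0491), and leaving out single libraries gave 5 to 6. The count over all genes was 3020, from 2074 (without wild-type podocyte replicate 2) to 3278 (without knockout podocyte replicate 3) with single libraries left out, 2347 with library size only and 3325 with DESeq2.

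With the replicate number as a replicate block, 8 of the 8 genes passed the cell type test and 3435 genes passed in all. Peg3 (-0.86, adjusted p = 0.0443), Grb10 (-0.48, adjusted p = 0.0438) and Igf2r (-0.66, adjusted p = 0.0200) were the additions. The labels do not say that a number marks a shared animal or day. Deviations of same-numbered libraries correlated at 0.434 between the endothelial genotypes, 0.137 between the podocyte genotypes, 0.00481 between wild-type cell types and 0.276 between knockout cell types, over the 10080 genes with a mean of at least 5 CPM. Over all 16477 genes they correlated at 0.188, 0.157, -0.129 and 0.111 in the same order. Each set held a pair that did not exceed 0.1, so the block was not used for the results. A block with the podocyte numbers swapped, chosen after seeing the data, gave 5 of the 8 and 2912 genes. The block changed no genotype call among the 8 genes.

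Knockout counts over all genes were 1 in each cell type. In endothelium they were 0 with library size only and with a mean of at least 5 CPM, 4 with DESeq2 and 0 to 1 without single libraries. In podocytes they were 0 with those settings and in a fit of the podocyte libraries alone, 8 with DESeq2 and 0 to 1 without single libraries. Library size only moved the median of all genes to 0.17 for the cell type difference, 0.33 for the knockout in endothelium, 0.13 in podocytes and 0.18 for the interaction, the difference between the 2 knockout effects. Signs turned only among values that had not passed. With other settings these were Igf2r in endothelium (-0.0037 with DESeq2 size factors and with DESeq2), Peg3 in endothelium (0.085 with library size only), Igf2r in podocytes (0.064 with library size only and 0.015 with a mean of at least 5 CPM), and the Grb10 interaction (-0.015 with DESeq2 size factors and with DESeq2). The cause was not tested.

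With single libraries left out, endothelial knockout values ran from -2.57 to 0.17 for Cdkn1c, -0.049 to 0.26 for Meg3, -0.79 to 0.092 for Peg3, -0.22 to 0.32 for Grb10, -0.27 to 0.80 for Plagl1, -0.40 to 0.58 for Igf2 and -0.37 to 0.60 for Igf2r. Podocyte values ran from -1.16 to -0.43 for Cdkn1c, -0.55 to -0.20 for Plagl1 and -0.64 to 1.10 for Meg3. They ran from -1.26 to 0.091 for Peg3, -0.34 to 0.37 for Grb10, 0.076 to 1.76 for Igf2 and -0.21 to 0.088 for Igf2r. Interactions ran from -1.82 to 0.92 for Cdkn1c, -0.99 to 0.76 for Meg3, -0.37 to 0.98 for Peg3, -0.29 to 0.41 for Grb10, -1.59 to 0.13 for Igf2 and -0.32 to 0.65 for Igf2r. A lone library of a group is assumed there to vary like the other groups. With 2 libraries a group, some genotype differences of over 3 standard errors, such as that of Mest in endothelium, did not pass after adjustment.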

Other observations

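Proliferation genes were on the higher side in knockout podocytes without passing the test. Of the 26 tested, 20 had a positive log2 fold change, with a median of 0.48 beside 0.02 over all genes, and edgeR called 0 (4 at an unadjusted p of 0.05, and 0 by DESeq2). Ccnb1, a mitotic cyclin, had 11 and 59 counts in knockout podocytes and 1 and 3 in wild-type podocytes (edgeR log2 fold change 4.09, SE 1.02, adjusted p = 0.978). Without knockout podocyte replicate 3 the median was 0.09 and 15 of the 26 were positive, so the shift rested largely on that library. Parietal epithelial markers were positive in 7 of 8 in the same comparison, with a median of 0.64 and 0 calls (1 at an unadjusted p of 0.05), and summed to 1696 and 886 CPM in knockout and 783 and 914 CPM in wild-type podocytes. Their part in the values of the proliferation genes was not tested.

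Htra3, a secreted serine protease gene of the imprinted list, had the smallest p of that list for the knockout in endothelium. It had 79 and 52 counts in knockout and 13 and 12 in wild type (log2 fold change 2.43, SE 0.62, unadjusted p = 0.00258, edgeR adjusted p = 0.716). Rtl1 had the smallest p of that list in podocytes, with 12 and 6 counts in knockout and 1 and 0 in wild type (unadjusted p = 0.0123, edgeR adjusted p = 0.978).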
